A study of Homo sapiens with 6 samples.

Results

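The 10 genes described here encode enzymes that make serine, move its 1-carbon units through the folate cycle, or make asparagine. They were chosen by symbol, with earlier results of these data known (PHGDH, PSAT1, PSPH, SHMT1, SHMT2, MTHFD1, MTHFD2, MTHFD1L, ALDH1L2 and ASNS). All 10 were found, each in 1 row, among the 26391 genes of the deposited table, and all 10 passed the filter on low values that left 16245 genes for testing. Their mRNA was measured by poly-A RNA sequencing, with paired 75 base reads, in HEK293T, an immortal line derived from human embryonic kidney and expressing SV40 large T antigen, grown in DMEM with 10% FBS. Cultures at 50% confluency received either a pool of 4 siRNAs against LOC550643 or a non-silencing control siRNA, both with Dharmafect I, and RNA was taken 48 hours later, with 3 libraries in each group. LOC550643, listed as LINC01420 and now named NBDY, encodes a small protein reported to bind the mRNA decapping scaffold EDC4, so the question put to the data is whether its silencing alters mRNA abundance. Only 1 siRNA pool was set against 1 control, and loss of LOC550643 and off-target action of either reagent cannot be told apart.

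Serine is made from a glycolytic intermediate in a chain of 3 enzyme steps, and its side carbon is then handed to tetrahydrofolate, which feeds the synthesis of purines, thymidylate and methionine. The folate steps exist in parallel in mitochondria and in the cytosol, with separate enzymes for each place, and proliferating cells generally draw their formate from the mitochondrial side. Several of these genes, with asparagine synthetase, are known targets of the transcription factor ATF4, which cells use when amino acids run short.

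The promoter sequences below show what letters the upstream regions of these genes share. RefSeq promoter windows (250 bases before each listed start) were at hand for 7 of the 10 genes. PSPH, SHMT2 and ALDH1L2 were not among them. A gene with several listed starts has several windows, and it was counted if any of them held the motif. The 7 genes had 11 windows, with more than 1 for MTHFD1L and for ASNS. The 27305 genes with a window had 35116. The windows come from the GRCh38.p14 table and were placed by exact match on GRCh37, the build of the deposited table (hg19). The CCAAT box (CCAAT, either strand), the letters recognised by the factor NF-Y, was present in 6 of the 7 genes, all but ASNS, against 37% of 27305 genes with a window. PSAT1 and SHMT1 are shown because both were higher after LOC550643 siRNA and the stretches printed lie outside the GENCODE exons. The matches in PHGDH, MTHFD2 and MTHFD1 lie inside such exons, and that of MTHFD1L lies outside them. Of the 6 genes with the box, PHGDH, MTHFD2 and MTHFD1L did not pass the test for a change after LOC550643 siRNA. ASNS, without the box, was higher. A link between the box and the change was not tested. Capitals mark the CCAAT boxes that lie whole within the stretches, and ATTGG is the same box on the other strand. A further CCAAT box of the PSAT1 window, at chr9:80911989-80911993, runs past the end of the printed stretch and is not marked. The PSAT1 stretch lies at chr9:80911791-80911990 on the plus strand and that of SHMT1 at chr17:18266878-18267114 on the minus strand, both written 5′ to 3′.
PSAT1: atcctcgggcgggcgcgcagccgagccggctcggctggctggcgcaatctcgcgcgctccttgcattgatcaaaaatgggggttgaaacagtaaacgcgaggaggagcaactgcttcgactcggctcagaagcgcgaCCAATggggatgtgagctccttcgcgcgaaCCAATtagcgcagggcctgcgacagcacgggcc
SHMT1: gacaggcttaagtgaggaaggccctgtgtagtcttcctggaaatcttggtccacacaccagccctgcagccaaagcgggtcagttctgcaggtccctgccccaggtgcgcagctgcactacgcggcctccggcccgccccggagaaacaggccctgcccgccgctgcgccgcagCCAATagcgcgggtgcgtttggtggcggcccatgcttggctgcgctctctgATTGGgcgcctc

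The letters of the C/EBP-ATF response element (TGATGNAA, either strand), through which ATF4 is known to act, were present in 2 of the 7 genes, ASNS and MTHFD1L, against 3.89% of genes with a window. ASNS and MTHFD1L each have more than 1 window, and so had more chances of a match than a gene with 1. Both stretches are shown because they hold these letters, which in both genes lie inside GENCODE exons; the log2 fold changes, LOC550643 siRNA over control, were 0.29 for ASNS and -0.02 for MTHFD1L. The E-box (CACGTG), the letters recognised by MYC, was present in MTHFD1 and MTHFD1L, against 7.73% of genes. In both genes the E-box lies inside GENCODE exons. These matches describe letters in a window and show no binding. The ASNS stretch lies at chr7:97501770-97501799 on the minus strand and that of MTHFD1L at chr6:151187482-151187511 on the plus strand, with the element in capitals. In ASNS the element begins 68 bases before 1 of its RefSeq starts, and the window of its other start holds no match.
ASNS: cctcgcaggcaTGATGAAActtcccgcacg
MTHFD1L: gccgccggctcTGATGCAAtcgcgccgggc

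The siRNA target was reduced in every library of the pool, from 52.9 ± 2.88 to 5.74 ± 0.292 CPM (a library's share of counts, scaled to a common total after TMM normalisation; SD, n = 3 each; log2 fold change -3.20, limma adjusted p = 6.98e-09). Libraries held 8604236 to 36082404 read pairs as inferred from the values, and LOC550643 siRNA replicate 3 was the shallowest. Of 6 genes typical of HEK293T cells, all were measured in all 6 libraries, with vimentin (VIM) at 812.7 and neurofilament light (NEFL) at 102.9 CPM in the control libraries. The others were lower there, with KRT18 at 73.5, KRT8 at 43.05, PAX2 at 16.55 and NES at 10.1 CPM. KRT18 was called higher after LOC550643 siRNA (log2 fold change 0.51, limma adjusted p = 0.000727), and no other of the 6 passed. Of 11 markers of blood, endothelium, fibroblasts and liver, 10 had group means under 1 CPM, and COL1A1 was at 64.7 CPM in the control and 63.6 CPM in the LOC550643 siRNA libraries. The labels do not say that replicates were separate cultures, so the p-values rest on sample-to-sample spread that could be technical alone. In bulk RNA, a change in the number of cells with an mRNA cannot be told apart from a change in its amount per cell.

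After LOC550643 siRNA, 6 of the 10 enzyme mRNAs rose, 0 fell and 4 did not pass the test (limma, Benjamini-Hochberg adjusted p under 0.05 over all 16245 genes). The risers were PSAT1, MTHFD1, SHMT2, ASNS, ALDH1L2 and SHMT1, with log2 fold changes of 0.24 to 0.55 over the control siRNA. PHGDH, PSPH, MTHFD2 and MTHFD1L did not pass. Over all genes tested, 17.5% were called higher and 18.2% lower (35.7% in all). The members are well expressed, and among the 4625 genes whose mean level lies in their range, 60.9 to 870.5 CPM, 31.8% were called higher and 12.8% lower (44.7% in all). The median log2 fold change was 0.27 for the 10 enzymes, 0.09 for genes in that range and -0.02 for all genes tested. Because the enzymes were chosen with earlier results of these data known, the shares and medians here are descriptive. The groups did not overlap at these same 6 enzymes, all upward, where 23.7% of genes tested were higher and 24.9% lower without overlap (48.5% in either direction). Among genes in the members' range these shares were 38.8% and 16.3% (55.1% in either direction). All 10 differences were small: none reached the log2 fold change of 1 that the authors asked of a differentially expressed gene. In the table deposited by the authors, 6 of the 10 had an adjusted p under 0.05, all upward. Of the 21604 rows above 0 in the authors' deposited table, 11.3% were called higher and 12.9% lower (24.2% in all).

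**Figure D1:**
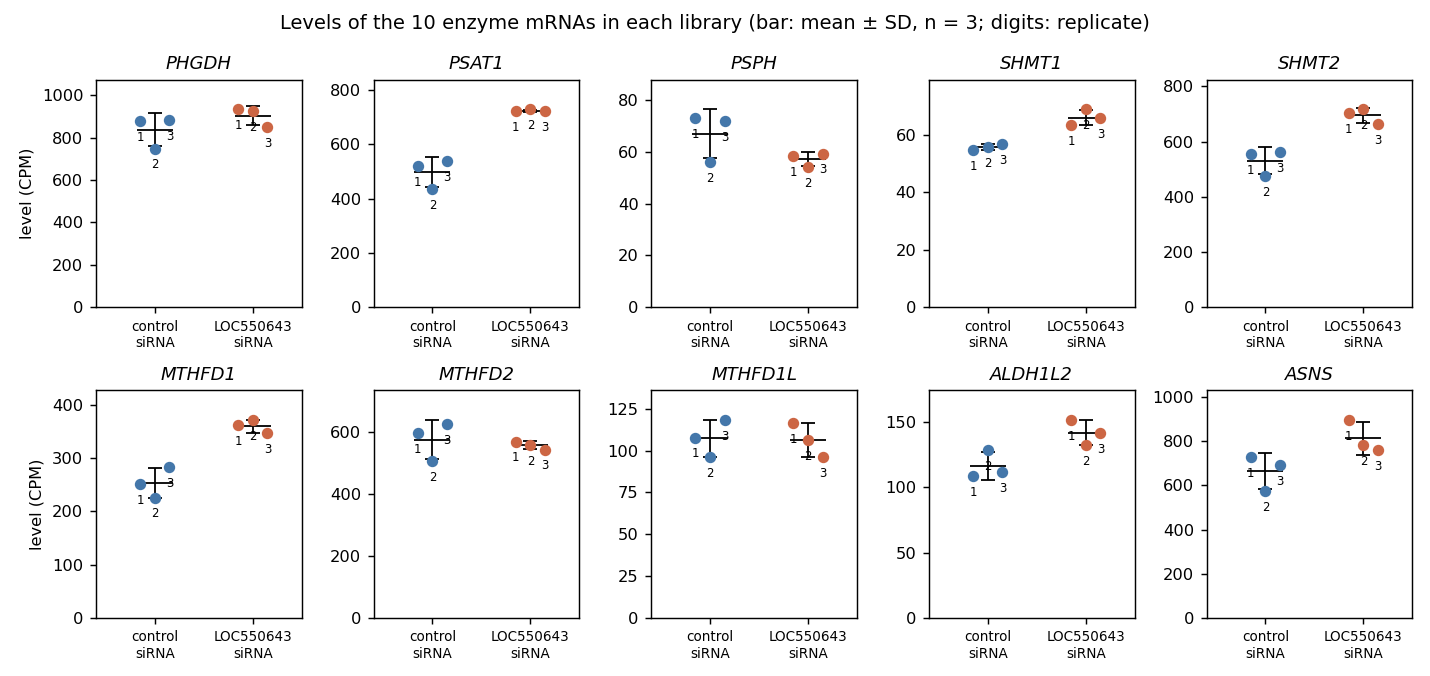
Level of each enzyme mRNA (CPM, axis from 0) in the 3 control siRNA and 3 LOC550643 siRNA libraries; points are libraries, digits their replicate number, bars the mean ± SD. PSAT1, MTHFD1, SHMT2, SHMT1, ALDH1L2 and ASNS have groups that do not overlap, and PHGDH, PSPH, MTHFD2 and MTHFD1L have groups that do.

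Of the 3 enzymes that make serine, the middle one rose and the first and last did not pass. PHGDH, 3-phosphoglycerate dehydrogenase, takes the first step (NM_006623, chromosome 1, 120254419 to 120286849, plus strand, hg19). It stood at 880.0, 748.5 and 884.3 CPM in control replicates 1 to 3 and at 933.4, 925.2 and 851.5 CPM in LOC550643 siRNA replicates 1 to 3. The groups overlapped, since LOC550643 siRNA replicate 3 was below control replicates 1 and 3. The log2 fold change was 0.11 (95% interval -0.08 to 0.31, limma adjusted p = 0.356), so a rise of more than 0.31 lies outside the interval. PHGDH was the most abundant of the 10 per length in both groups.

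PSAT1, phosphoserine aminotransferase, takes the second step and showed the largest change of the 10 (NM_058179, chromosome 9, 80911991 to 80945009, plus strand). Its levels were 519.2, 435.8 and 537.8 CPM in the control libraries and 721.5, 728.7 and 722.7 CPM in the LOC550643 siRNA libraries. The LOC550643 siRNA libraries were nearly equal, with a coefficient of variation of 0.536%, against 10.9% in the control libraries; the groups did not overlap. The means were 497.6 ± 54.3 and 724.3 ± 3.88 CPM (SD, n = 3 each), a log2 fold change of 0.55 (SE 0.088, limma adjusted p = 0.00071). The call held under all 18 alternative settings, with log2 fold changes of 0.44 to 0.61. Its promoter stretch is the first of those printed above.

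PSPH, phosphoserine phosphatase, releases free serine in the last step (NM_004577, chromosome 7, 56078744 to 56119268, minus strand). It stood at 73.1, 56.3 and 72.1 CPM in the control libraries and at 58.4, 54.1 and 59.5 CPM in the LOC550643 siRNA libraries. Control replicate 2 lay among the LOC550643 siRNA libraries, and the other control libraries lay above all 3 of them. The log2 fold change was -0.22 (95% interval -0.44 to -0.001), with an unadjusted limma p of 0.0494 and an adjusted p of 0.108. Without control replicate 2 the gene was called lower, at -0.35 (adjusted p = 0.00413), and with library totals alone it was called at -0.29 (adjusted p = 0.0394).

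The enzymes that move carbon from serine to folate, SHMT1 in the cytosol and SHMT2 in mitochondria, both rose. SHMT2, mitochondrial serine hydroxymethyltransferase (NM_005412, chromosome 12, 57623356 to 57628718, plus strand), was at 555.1, 473.8 and 562.2 CPM in the control and 704.3, 716.7 and 663.7 CPM in the LOC550643 siRNA libraries. Every LOC550643 siRNA library was above every control library. The means were 530.4 ± 49.1 and 694.9 ± 27.7 CPM (log2 fold change 0.39, SE 0.085, limma adjusted p = 0.0043), and the call held under all 18 alternatives. SHMT1, the cytosolic form (NM_004169, chromosome 17, 18231174 to 18266877, minus strand), was much lower, at 54.8, 55.8 and 56.7 CPM in the control and 63.4, 68.8 and 65.7 CPM in the LOC550643 siRNA libraries. The groups did not overlap (log2 fold change 0.24, SE 0.067, limma adjusted p = 0.016). The call of SHMT1 was lost without control replicate 1 (adjusted p = 0.0606), without LOC550643 siRNA replicate 2 (0.0687) and with library totals alone (0.0616). SHMT1 overlaps SMCR8 on the opposite strand by 197 bases and SHMT2 overlaps NDUFA4L2 by 33, and since counting did not use strand, reads in those stretches could come from either gene.

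Of the enzymes that process the folate-bound carbon, the cytosolic MTHFD1 rose and the mitochondrial MTHFD2 and MTHFD1L did not pass. MTHFD1, a cytosolic protein that carries dehydrogenase, cyclohydrolase and formyltetrahydrofolate synthetase activities (NM_005956, chromosome 14, 64854759 to 64926725, plus strand), was at 251.9, 226.0 and 282.6 CPM in the control libraries. It was at 361.5, 371.6 and 347.4 CPM in the LOC550643 siRNA libraries, all above the highest control library. The means were 253.5 ± 28.3 and 360.2 ± 12.2 CPM (log2 fold change 0.51, SE 0.086, limma adjusted p = 0.000906), and the call held under all 18 alternatives, at 0.42 to 0.59. ZBTB25 overlaps it on the opposite strand by 10902 bases; its row stood at 26.6 CPM on average and at a log2 fold change of 0.34.

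MTHFD2, the mitochondrial dehydrogenase and cyclohydrolase (row NR_027405, chromosome 2, 74425690 to 74442424, plus strand), was at 597.6, 505.9 and 626.6 CPM in the control and 570.0, 558.3 and 544.4 CPM in the LOC550643 siRNA libraries. The LOC550643 siRNA libraries all lay within the range of the control libraries (log2 fold change -0.04, 95% interval -0.24 to 0.15, limma adjusted p = 0.735). MTHFD1L, the mitochondrial formyltetrahydrofolate synthetase (NM_001242767, chromosome 6, 151186815 to 151423023, plus strand), was at 107.9, 96.3 and 118.1 CPM in the control and 116.3, 106.5 and 96.0 CPM in the LOC550643 siRNA libraries. The groups overlapped (log2 fold change -0.02, 95% interval -0.22 to 0.19, limma adjusted p = 0.915).

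ALDH1L2, the mitochondrial 10-formyltetrahydrofolate dehydrogenase, oxidises formyl groups to carbon dioxide and yields NADPH (NM_001034173, chromosome 12, 105413562 to 105478341, minus strand). Its levels were 108.3, 128.8 and 111.9 CPM in the control and 151.5, 132.5 and 141.7 CPM in the LOC550643 siRNA libraries. Control replicate 2, the highest control library, and LOC550643 siRNA replicate 2, the lowest of its group, stood close. The log2 fold change of 0.29 passed (limma adjusted p = 0.0191, SE 0.083). The call was lost without control replicate 1 (adjusted p = 0.0867), control replicate 3 (0.0634), LOC550643 siRNA replicate 1 (0.0732) or LOC550643 siRNA replicate 3 (0.053), and with library totals alone (0.0717). Its cytosolic counterpart ALDH1L1 was below the filter, at or under 2 read pairs in every library.

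ASNS, asparagine synthetase, makes asparagine from aspartate and glutamine (NM_133436, chromosome 7, 97481429 to 97501477, minus strand). It was at 729.6, 574.9 and 690.9 CPM in the control and 896.8, 784.6 and 759.1 CPM in the LOC550643 siRNA libraries. The groups did not overlap, and the difference between LOC550643 siRNA replicate 3 and control replicate 1 was small beside the spread within each group. The means were 665.1 ± 80.5 and 813.5 ± 73.3 CPM (log2 fold change 0.29, SE 0.103, limma adjusted p = 0.0447). It was called in the fewest settings of the 6 genes. It was lost without control replicate 2 (log2 0.18, adjusted p = 0.118), control replicate 3 (0.0606) or any 1 of LOC550643 siRNA replicates 1 to 3 (0.156, 0.0867 and 0.0589). It was also lost with upper-quartile scaling (0.0785), library totals alone (0.117) and no filter on low genes (0.0934).

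**Figure D2:**
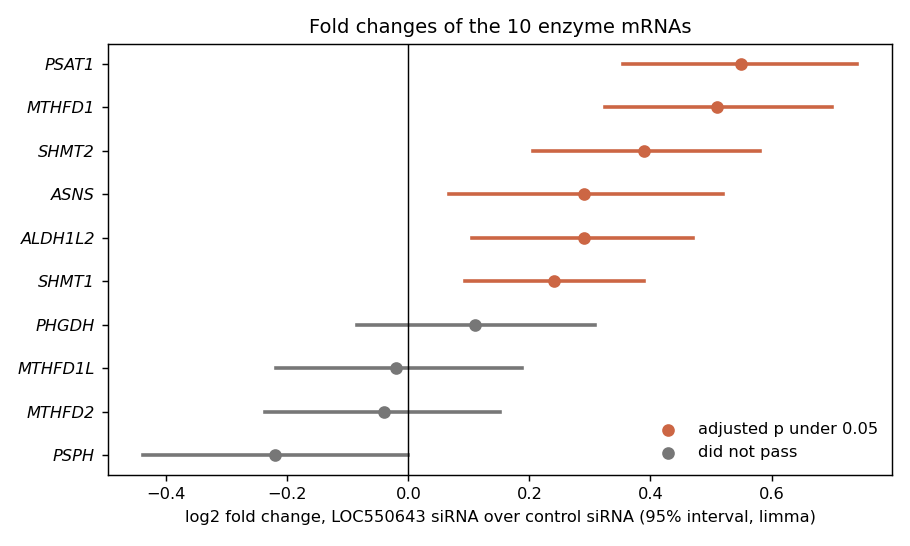
Log2 fold change of each enzyme mRNA, LOC550643 siRNA over control siRNA, with its 95% interval from limma; the colour marks the 6 genes with an adjusted p under 0.05. PSAT1 (0.55) and MTHFD1 (0.51) lie farthest to the right, and MTHFD1L (-0.02) and MTHFD2 (-0.04) lie at 0.

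A ratio of 2 mRNAs within a library does not depend on how libraries were scaled, and was computed for 2 pairs of a mitochondrial enzyme and a cytosolic counterpart. The log2 ratio of MTHFD1L to MTHFD1 was -1.22, -1.23 and -1.26 in the control libraries and -1.64, -1.80 and -1.86 in the LOC550643 siRNA libraries. It was lower in 3 of 3 LOC550643 siRNA libraries, with a difference of -0.53 between group means of -1.24 ± 0.019 and -1.76 ± 0.115 (SD, n = 3 each). The exact two-sided permutation p was 0.1, the smallest that 3 against 3 libraries can give, and 0.2 after Benjamini-Hochberg adjustment over the 2 ratios. The log2 ratio of SHMT2 to SHMT1 was 3.34, 3.09 and 3.31 in the control and 3.47, 3.38 and 3.34 in the LOC550643 siRNA libraries. Control replicate 1 was level with LOC550643 siRNA replicate 3, and the difference of 0.15 had an exact permutation p of 0.2 (adjusted 0.2). Without control replicate 2 that difference was 0.07. These ratios compare libraries and not the levels of the 2 genes, which differ in length.

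Per kilobase of gene model, the levels of the enzymes spanned a wide range. In the control libraries the order was PHGDH (418.6 CPM per kilobase), ASNS (286.8), MTHFD2 (253.4), SHMT2 (232.5), PSAT1 (221.6), MTHFD1 (74.2), PSPH (31.9), MTHFD1L (31.2), SHMT1 (22.0) and ALDH1L2 (15.5). The ranges over libraries overlapped between each pair of neighbours from ASNS through PSAT1 and for PSPH and MTHFD1L. The lowest control library of ASNS (247.9) still lay above the highest of SHMT2 (246.5) and of PSAT1 (239.6). Within each control library the order was likewise ASNS, MTHFD2, SHMT2 and PSAT1, while that of PSPH and MTHFD1L differed between libraries. PHGDH, MTHFD1, SHMT1 and ALDH1L2 each stood clear of their neighbours. In the LOC550643 siRNA libraries PSAT1 (322.6) and SHMT2 (304.6) stood above MTHFD2 (245.0) with ranges that did not overlap. Among all genes tested, by the mean of the 6 libraries, PHGDH ranked 90 of 16245, and ASNS, PSAT1, SHMT2 and MTHFD2 ranked 132, 156, 162 and 183. ALDH1L2, the lowest, was above 67.0% of genes tested.

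**Figure D3:**
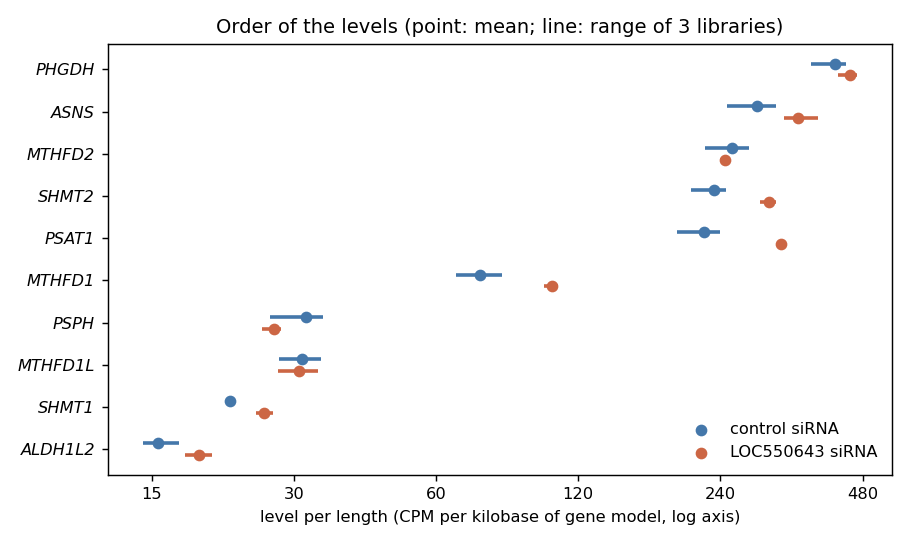
Level per length of each enzyme mRNA (CPM per kilobase of gene model, log axis) by group; points are means of 3 libraries and lines run from the lowest to the highest library. The top 5 enzymes lie between 221.6 and 418.6 in the control libraries, and PSAT1 moves from 221.6 to 322.6.

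Control replicate 2 was the lowest control library at 8 of the 10 genes and the highest at 1, ALDH1L2; over all genes tested it was the lowest at 39.8%. Control replicate 3 was the highest at 7 of the 10, and at 33.3% of all genes tested. The 10 enzymes summed to 3877, 3302 and 3943 CPM in the control libraries and to 4577, 4447 and 4252 CPM in the LOC550643 siRNA libraries. The sum was thus higher in 3 of 3 LOC550643 siRNA libraries, also without control replicate 2. Counting error was at most 4.47% of the value (PSPH in LOC550643 siRNA replicate 3, 500 read pairs), and under 1.5% at PHGDH, PSAT1, SHMT2, MTHFD2 and ASNS in every library. The coefficient of variation was not above counting error everywhere: for SHMT1 in the control libraries it was 1.69%, against a counting error of 2.19% to 2.35%, and for PSAT1 in the LOC550643 siRNA libraries it was 0.536%, against 0.634% to 1.28%. With control replicate 2 left out, 5 of the 10 enzymes were called higher, all but ASNS of the 6, and 1 lower, PSPH, where 16.1% of genes were called higher and 17.7% lower. Without another single library 4 enzymes were called higher, against 13.1% of genes when control replicate 1 was left out and 15.2% when it was control replicate 3. For LOC550643 siRNA replicates 1 to 3 left out in turn, the share of genes called higher was 15.2%, 12.5% and 14.9%. With library totals alone 3 were called higher and 1 lower, where 12.8% of genes were higher and 24.5% lower. At an adjusted p of 0.01 the 3 were PSAT1, SHMT2 and MTHFD1, where 10.9% of genes were higher, and with a replicate block 6 were called, where 16.4% were higher.

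**Figure D4:**
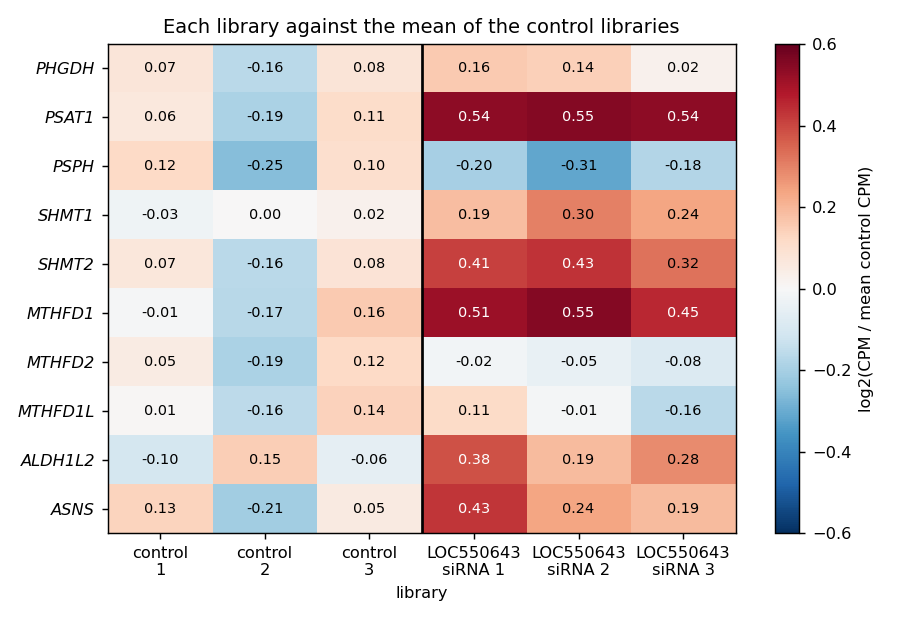
Log2 ratio of each library's CPM to the mean of the control libraries, for each enzyme; red is above and blue below that mean, and the vertical line separates the groups. Control replicate 2 is the lowest control library at 8 of the 10 genes, and PSAT1 is at 0.54 to 0.55 in all 3 LOC550643 siRNA libraries.

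Of 77 neighbouring genes in 9 lists, 74 were tested, of which 20 rose, 10 fell and 44 did not pass (40.5% called, median log2 fold change 0.09). Of all genes tested 17.5% were called higher and 18.2% lower (35.7% in all), the shares to set beside the counts of each list below. Among genes in the range of levels of the 10 enzymes, 31.8% were higher and 12.8% lower (44.7% in all), with a median of 0.09. Calls ran in both directions in 5 of the 9 lists. Purine synthesis, which uses folate-bound carbon, had 3 of 6 genes higher and 0 lower: ATIC (log2 0.36, limma adjusted p = 0.00419) and GART (0.30, 0.00852), which each add a formyl group, and PAICS (0.30, 0.0234), with ADSL at 0.16 (0.18). Glycine cleavage, which breaks glycine down in mitochondria, had 1 of 4 genes higher. This was GLDC, the glycine decarboxylase, at 27.2 ± 0.661 and 46.7 ± 2.60 CPM in the 2 groups (log2 0.78, limma adjusted p = 2.9e-05), beside AMT at -0.35 (0.0812), GCSH at 0.27 (0.186) and DLD at 0.18 (0.136). AMT was called lower without LOC550643 siRNA replicate 1 (-0.49, 0.0295) and with library totals alone (-0.43, 0.0444), and it overlaps NICN1 on the same strand by 346 bases. DLD was called higher without control replicate 3 (0.29, 0.0221) and with the GC content and length correction, added after seeing the data (0.22, 0.0298), and was at 0.08 (0.447) without control replicate 2.

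Of 10 further folate enzymes tested, 1 rose and 2 fell. FPGS, which adds glutamates that hold folate in the cell, rose (log2 0.33, limma adjusted p = 0.00622). MTHFS, which returns 5-formyltetrahydrofolate to the pool, fell from 17.3 ± 2.22 to 10.0 ± 1.60 CPM (log2 -0.79, adjusted p = 0.00109); its row overlaps the readthrough gene ST20-MTHFS. Thymidylate synthase TYMS was at -0.18 (0.118). TYMS was called lower without control replicate 2 (-0.28, 0.00728) and with library totals alone (-0.26, 0.0314). It overlaps ENOSF1 on the opposite strand by 3176 bases, a row at 100.9 CPM and a log2 fold change of -0.27, and TYMSOS by 737 bases. Of 12 transport genes 3 rose and 2 fell. SFXN1, the mitochondrial serine carrier, rose, with means of 218.3 ± 4.66 and 322.7 ± 16.8 CPM (log2 0.56, adjusted p = 0.000128) and SLC19A1, the reduced folate carrier, rose by 0.33 (0.00372). The other that rose, named after its value was seen, was the neutral amino acid transporter SLC1A5 (0.22, 0.0412). SLC25A32, the mitochondrial folate carrier, fell by 0.30 on the log2 scale (0.00978), and the amino acid transporter SLC38A1 fell by 0.36 (0.0208), a call lost without LOC550643 siRNA replicate 2 (0.0987). SLC25A32 overlaps DCAF13 on the opposite strand.

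In the methionine cycle and transsulfuration, 2 of 10 genes tested rose and 2 fell. CBS and CTH, the enzymes that turn homocysteine and serine into cysteine, rose by log2 0.41 and 0.49 (limma adjusted p = 0.00396 and 0.00232). MAT2A, which makes S-adenosylmethionine, and AHCYL2, a relative of adenosylhomocysteinase, fell, with log2 fold changes of -0.20 (0.0293) and -0.51 (0.000666). The call of MAT2A was lost without any 1 library but control replicate 2 (adjusted p 0.0529 to 0.0823 in these fits), and the gene overlaps GGCX on the opposite strand. Of 10 genes of asparagine, aspartate and glutamine metabolism 2 rose and 1 fell. GPT2, the mitochondrial alanine aminotransferase, rose (log2 0.79, adjusted p = 9.86e-06), with means of 96.9 ± 2.62 and 167.7 ± 4.14 CPM, and glutamine synthetase GLUL rose by 0.30 (0.0106). ASRGL1, an asparaginase, fell by 0.50 on the log2 scale (adjusted p = 0.000651), and GOT1 was at 0.17 (0.0886).

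Among genes that use serine in other reactions, 0 of 6 tested rose and 1 fell. SPTLC2, a subunit of the enzyme that starts sphingolipid synthesis from serine, fell from 123.6 ± 11.4 to 84.5 ± 13.5 CPM (log2 -0.56, limma adjusted p = 0.00224). Serine racemase SRR was at 0.20 (0.0559), SDSL at 0.27 (0.122) and SPTLC1 at -0.08 (0.394). SRR was called higher without control replicate 3 (0.25, 0.0328) and with the GC content and length correction (0.24, 0.00606). It overlaps TSR1 on the opposite strand by 2577 bases, a row at 171.0 CPM and a log2 fold change of 0.45. ADSL and GOT1, given above, were also called higher with that correction (0.22, 0.0277 and 0.21, 0.0074). The 5 tRNA synthetases for serine, asparagine and glycine split: GARS for glycine (log2 0.56, adjusted p = 0.00065) and NARS for asparagine (0.28, 0.016) rose, while SARS and SARS2, the cytosolic and mitochondrial synthetases for serine, fell by 1.27 and 0.34 on the log2 scale (adjusted p = 3.45e-05 and 0.00437). The calls of NARS and PAICS were lost with library totals alone (adjusted p = 0.052 and 0.0655) and in some fits with 1 library left out. For NARS these were the fits lacking control replicate 1 (0.0604) and LOC550643 siRNA replicate 2 (0.0727). For PAICS they were the fits lacking control replicate 1 (0.081), control replicate 2 (0.0557), LOC550643 siRNA replicate 2 (0.0807) and LOC550643 siRNA replicate 3 (0.0829). PAICS was also lost with no filter (0.0516).

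Of 11 known regulators of these genes 6 rose and 0 fell, where 17.5% of all genes tested were called higher and 18.2% lower. The list was chosen with earlier results of these data known, so this count is descriptive. The stress-response factors ATF3 (log2 0.82), DDIT3 (0.77) and CEBPG (0.59) rose, as did CEBPB (0.43), which is named after its value was seen. TRIB3, a pseudokinase that ATF4 induces, was at 66.2 ± 14.5 CPM in the control and 179.6 ± 39.5 CPM in the LOC550643 siRNA libraries (higher by log2 1.44, limma adjusted p = 9.45e-05). The mRNA of ATF4 itself was at 1206 ± 77.8 and 1158 ± 50.3 CPM (-0.06, adjusted p = 0.633); its protein, which is set mainly by translation, was not measured. DDIT3 overlaps MARS on the opposite strand by 68 bases. The enzymes with the largest rise among the 10, PSAT1 and MTHFD1, stood below TRIB3, ATF3, DDIT3 and CEBPG in log2 fold change.

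**Figure D5:**
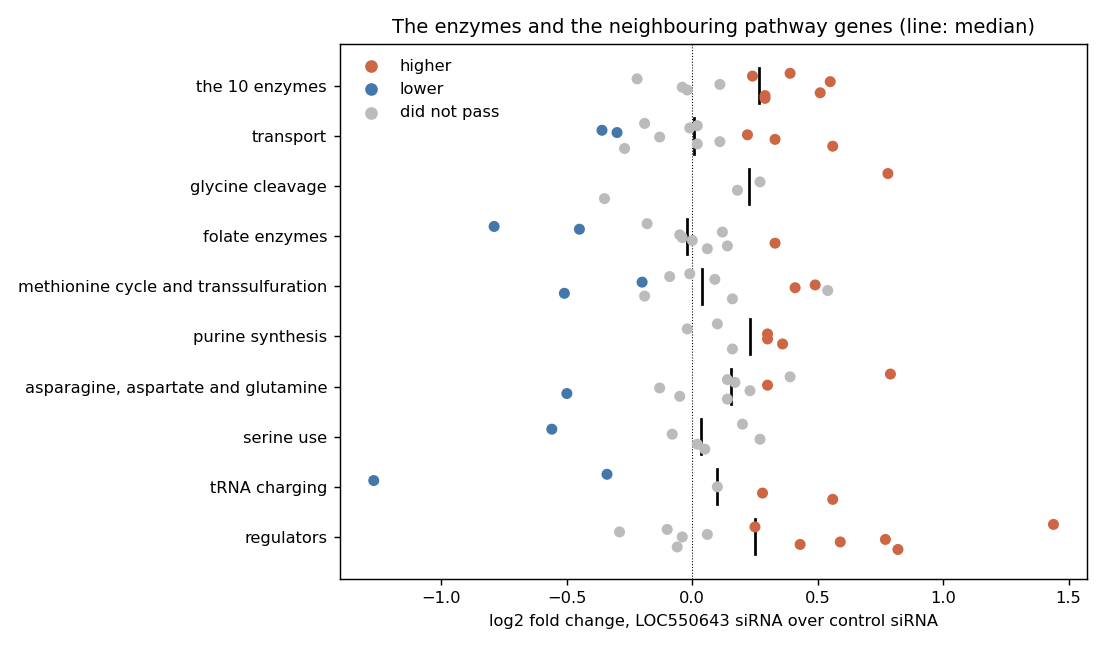
Log2 fold change of each tested gene of the 10 enzymes and the 9 neighbouring lists, LOC550643 siRNA over control siRNA; points are genes, coloured where the limma adjusted p is under 0.05, and vertical lines are list medians. The 10 enzymes have a median of 0.27, with 6 called higher and 0 lower, and SARS at -1.27 and TRIB3 at 1.44 lie farthest out.

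Genes with the most similar profiles were found by the root mean square difference of centred log2 values over the 6 libraries, among 14629 genes outside the lists with a mean of at least 1 CPM. For PHGDH these were DPCD (0.024) and RCHY1 (0.025), for MTHFD2 TSPAN13 (0.022) and TSN (0.025), and for ASNS AIMP2 (0.021) and DNAJC30 (0.021). This is a description of 6 libraries, in which small differences make many genes look alike.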

How the data were processed

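The deposited table gives 1 row per gene for 6 libraries. The labels name CASAVA 1.8.2 for demultiplexing, STAR 2.4.0k for alignment and hg19 as the genome. Per the file headers, reads over exons were counted with HOMER without a strand option. The deposited values are a signal: counts scaled by the authors to a common total. Within a library every value is a multiple of 1 step (100% within 0.1 step). That step was taken as 1 read end, which recovers whole reads. The deposited log2 fold changes, p-values and adjusted p-values of the authors come from edgeR 3.6.8 per the labels, and the deposited gene lengths from HOMER.

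Low genes were removed with filterByExpr, set to 10 read pairs. The rest were TMM-scaled, logged as log2 of the value plus a pseudocount of 1 deposited unit (0.034 CPM), and tested with limma 3.58.1 (empirical Bayes with trend, two-sided), with Benjamini-Hochberg adjustment over 16245 genes. Fold changes are on this scale, which understates those of low genes. With edgeR 4.0.16 on recovered reads, 5850 genes were called against 5793 with limma. The script was tested on simulated data. Alternatives were other scalings, filters, a pseudocount of 0.1, edgeR, DESeq2 1.42.0, voom, a replicate block, leaving out each library and an adjusted p of 0.01; a correction for GC content and transcript length (known for 96.1% of genes tested) was added after seeing the data. Replicates of a group all differed by more than counting noise (chi-square over its degrees of freedom, 5.47 to 41.8). Genes named are the members, the target, ATF4 and up to 4 genes of smallest p per list. Some genes that are counted in the lists are not reported here by name. The members and lists were chosen with earlier results of these data known. R 4.3.3 and Python 3.11.15 were used.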

Additional observations from a re-analysis of the deposited data

How the results depend on the processing

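Over 18 alternative settings no enzyme that was called changed direction: of 180 comparisons with the main fit, 159 kept their side of the threshold, 19 lost a call and 2, both PSPH, gained one. PSAT1, SHMT2 and MTHFD1 kept their calls throughout. The number of enzymes called higher was 6 in the main fit, 3 with library totals alone (with 1 lower) and 3 (3 called in all) at an adjusted p of 0.01. Leaving out 1 library at a time gave 4 to 6 enzymes called, 4 to 5 of them higher. Over all genes, 3521 were called at 0.01 (1770 higher and 1751 lower), and 4290 were higher with GC content and length trends removed, where 59.4% of calls were upward against 49.0% in the main fit and 34.4% with library totals alone. Neighbouring pathway genes called ranged from 24 to 31 with 1 library left out. For the same-numbered libraries, deviations from the group means correlated at 0.058, -0.283 and -0.12, and for libraries of different number at -0.136 to 0.247. These values show no likeness of same-numbered libraries, but cannot settle whether such samples were handled together, which the labels do not say. With the replicate number as a block, 5389 genes were called, and 6 enzymes, the count of the main fit. The 3 libraries per group and the 8604236 read pairs of the shallowest limit the precision.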
